A study of Homo sapiens with 16 samples.

Results

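Sorting for Wnt reporter activity was compared across breast cancer lines, MDA-MB-231 against MDA-MB-436, in all 8 standard serum libraries out of the 16 libraries of the series. MDA-MB-231 and MDA-MB-436 are mesenchymal lines of triple-negative breast cancer, a cancer without estrogen receptor, progesterone receptor or HER2 amplification. Both lines stably carried 7TGP, a vector in which Tcf/Lef sites drive eGFP beside a puromycin resistance cassette, and both were sorted repeatedly by FACS into a Wnt-positive subline (7TGP-POS, the brightest eGFP-positive cells, here POS) and a Wnt-negative subline (7TGP-NEG, eGFP-negative cells, here NEG). Every group was kept with 3 µg/mL puromycin. For RNA-seq, each of the 4 sublines was grown for 6 days in 10% fetal bovine serum, with 2 biological replicates per subline. The quantity reported is the line difference, that is the log2 fold change of POS over NEG in MDA-MB-231 minus the same log2 fold change in MDA-MB-436, for each of the 15414 protein-coding genes tested. A positive line difference means that the POS over NEG change was higher in MDA-MB-231. A gene was called where the adjusted p was under 0.05 and the difference was at least 1 on the log2 scale in either direction, from the quasi-likelihood test of edgeR adjusted by Benjamini-Hochberg over all genes tested.

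In canonical Wnt signaling, ligand binding to Frizzled and LRP receptors stabilizes β-catenin, which enters the nucleus and acts with Tcf/Lef factors on target genes. The 7TGP reporter reads that last step. Interferon signaling works through STAT and IRF factors that bind interferon response elements in promoters, and NF-κB drives cytokine and chemokine genes. Both programs can be active in carcinoma cells without immune cells present.

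Each line gave 1 pair of sublines, so the 2 libraries of a group are cultures of the same subline, and a difference between the lines cannot be told apart from a difference between these particular sorted pairs. Per the study's methods the lines were also kept in different base media, whereas the labels name the same medium for both, and where the methods hold the medium cannot be told apart from the line either. The libraries held 31827130 to 46044073 counts, and replicates of a group correlated at 0.995 to 0.996 (log2 CPM). The POS replicates of MDA-MB-436 differed most, with a median SD of 0.101 on the log2 scale against 0.055 to 0.0723 in the other groups, and their log ratio followed the GC content of genes (r = -0.588 across genes, against -0.104 to -0.12). The labels were checked against defining genes. ESR1 and PGR stayed under 0.746 CPM (read counts scaled for library size), CDH1 under 0.206 CPM and EPCAM under 9.22 CPM, whereas VIM was at 650.0 to 5725 CPM and ZEB1 at 29.4 to 126 CPM. ERBB2 was at 53.4 to 83.5 CPM. The leukocyte gene PTPRC was at 0.0744 to 10.1 CPM and CD14 at 1.92 to 5.90 CPM, while CD3E, PECAM1 and CDH5 did not reach the count minimum. Neither PTPRC nor CD14 passed the test of the line difference. The endothelial gene VWF, at 0.144 to 1.88 CPM, was called above, with a line difference of 1.74 (adjusted p = 0.0314). Of 13 leukocyte and endothelial markers tested 2 were called above and 2 below, against 7.02% and 6.81% of all genes tested.

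The response to reporter sorting differed between the lines in 2132 of the 15414 genes tested (13.8%). In 1082 genes the MDA-MB-231 change was above the MDA-MB-436 change (7.02% of genes tested) and in 1050 it was below (6.81%). Within the lines, 1185 genes were called between POS and NEG in MDA-MB-231 (7.69%, 4.96% higher in POS and 2.72% lower) and 1932 in MDA-MB-436 (12.5%, 6.47% higher and 6.06% lower), and 320 were called in both. Of those 320 genes, 173 moved in the same direction and 147 in opposite directions. All 147 also passed the test of the line difference. The remaining line differences were 515 genes called in MDA-MB-231 alone, 843 in MDA-MB-436 alone, 50 called in the same direction with different size, and 577 called in neither line by itself. The median line difference over all genes was -0.01. In 335 of the called genes at least 1 group had 3 counts or fewer in both libraries, and the fitted size of such a gene depends on the prior count of the model.

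**Figure D1:**
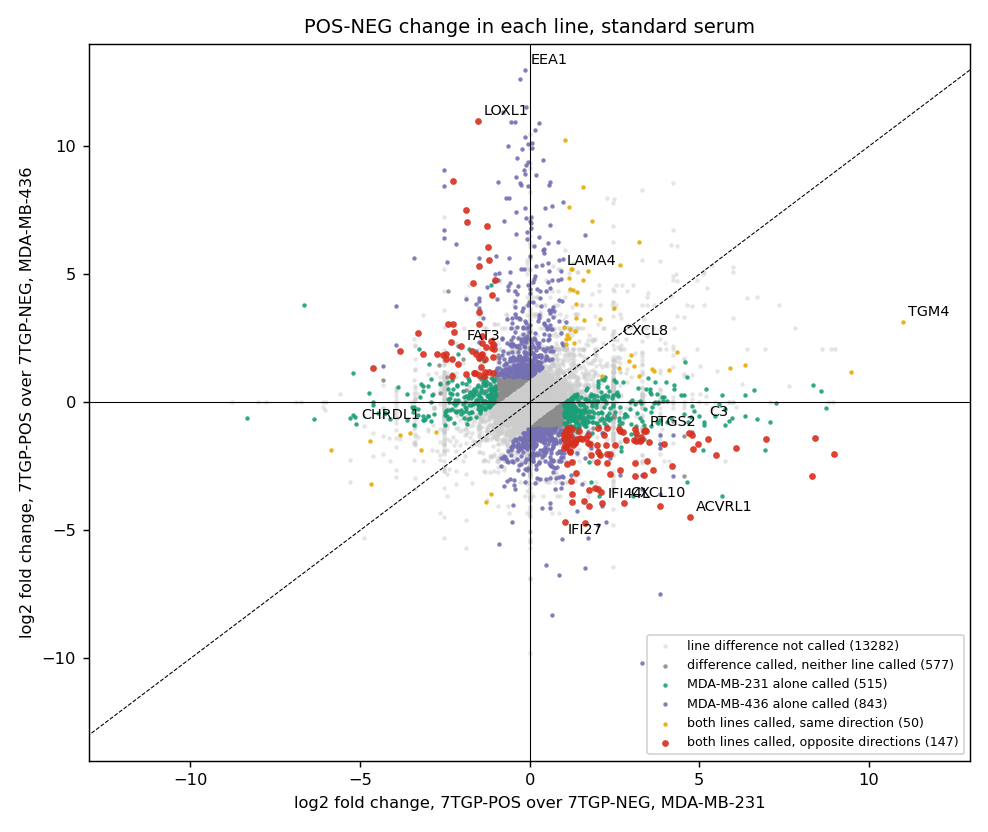
Each point is 1 of the 15414 genes tested in standard serum, with the log2 fold change of POS over NEG in MDA-MB-231 on the x axis and in MDA-MB-436 on the y axis, colored by call. The dashed line marks equal change in both lines, the 147 genes called in opposite directions lie in the upper left (52) and lower right (95) quadrants, and the rows of points parallel to the axes are genes with few counts, whose fitted fold change depends on the prior count.

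Among the genes that reversed, 95 were higher in MDA-MB-231 POS and lower in MDA-MB-436 POS (0.616% of genes tested). They included a prostaglandin synthase and secreted immune proteins. PTGS2, the inducible cyclooxygenase of prostaglandin synthesis (chr1:186640923-186650054, GRCh37, as for all gene positions here), was at 26.1 and 24.9 CPM in MDA-MB-231 NEG, 269 and 257 in MDA-MB-231 POS, 15.1 and 14.1 in MDA-MB-436 NEG and 7.05 and 6.37 in MDA-MB-436 POS. It was highest in MDA-MB-231 POS and lowest in MDA-MB-436 POS, and the groups did not overlap. The log2 fold change was 3.37 ± 0.08 (SE) in MDA-MB-231 and -1.12 ± 0.09 in MDA-MB-436, a line difference of 4.49 ± 0.12 (adjusted p = 2.51e-14).

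For several reversed genes the NEG subline was low in MDA-MB-231 and high in MDA-MB-436, and the POS sublines were closer to each other than the NEG sublines. C1S, a serine protease of the first complement component (chr12:7096351-7178336), was at 2.19 and 2.66 CPM in MDA-MB-231 NEG, 6.06 and 5.75 in MDA-MB-231 POS, 840.3 and 791 in MDA-MB-436 NEG and 267 and 249 in MDA-MB-436 POS. PDZK1IP1, a membrane protein that binds PDZ domains, was at 0.908 and 0.946 CPM in MDA-MB-231 NEG, 6.71 and 5.13 in MDA-MB-231 POS, 82.9 and 76.2 in MDA-MB-436 NEG and 11.9 and 13.9 in MDA-MB-436 POS. The line differences were 2.95 ± 0.15 for C1S and 5.29 ± 0.21 for PDZK1IP1 (adjusted p = 3.67e-11 and 3.68e-12). EPHB6, an ephrin receptor without kinase activity, was at 0.157 and 0.21 CPM in MDA-MB-231 NEG, 3.39 and 2.39 in MDA-MB-231 POS, 9.72 and 9.28 in MDA-MB-436 NEG and 3.02 and 3.21 in MDA-MB-436 POS, and its line difference was 5.56 ± 0.36 (adjusted p = 8.56e-10). For C1S and PDZK1IP1 both MDA-MB-436 groups lay above both MDA-MB-231 groups, whereas for EPHB6 the POS groups of the lines overlapped, and in all 3 genes no POS library overlapped a NEG library of its line. IL4I1, a secreted L-amino acid oxidase, crossed over instead. It was at 0.501 and 0.526 CPM in MDA-MB-231 NEG, 5.44 and 5.96 in MDA-MB-231 POS, 2.84 and 3.55 in MDA-MB-436 NEG and 0.514 and 0.815 in MDA-MB-436 POS, a line difference of 5.76 ± 0.35 (adjusted p = 4.25e-10).

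Other members of the same group were near the detection limit in a group. ACVRL1, a type I receptor for BMP9, had 1 count in MDA-MB-231 NEG against 34 in MDA-MB-231 POS, a ratio of 32.0 after scaling (counting 95% interval 5.37 to 1301), and 62 counts in MDA-MB-436 NEG against 3 in MDA-MB-436 POS, a ratio of 24.3 in the other direction (7.94 to 121). ALDH1L1, the cytosolic 10-formyltetrahydrofolate dehydrogenase, rose in MDA-MB-231 from 7.36 and 6.62 to 24.4 and 22.8 CPM and had 32 counts in MDA-MB-436 NEG against 2 in POS (ratio 18.8, counting 95% interval 4.80 to 162). Its mitochondrial counterpart ALDH1L2 had a line difference of the opposite sign. It was at 0.407 and 0.105 CPM in MDA-MB-231 NEG, 0.13 and 0.179 in MDA-MB-231 POS, 0.406 and 0.471 in MDA-MB-436 NEG and 66.5 and 55.2 in MDA-MB-436 POS, a line difference of -7.85 ± 0.77 (adjusted p = 2.19e-06). ALDH1L2 was called in MDA-MB-436 alone. These intervals cover counting error only.

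The 52 genes that were lower in MDA-MB-231 POS and higher in MDA-MB-436 POS (0.337% of genes tested) included matrix, adhesion and guidance genes. LAMB1, the β1 chain of laminin (chr7:107564244-107643658), was at 149 and 131 CPM in MDA-MB-231 NEG, 66.7 and 66.3 in MDA-MB-231 POS, 83.1 and 82.98 in MDA-MB-436 NEG and 299.6 and 269.8 in MDA-MB-436 POS. PLXNA2, a semaphorin receptor (chr1:208195587-208417729), was at 70.7 and 65.4 CPM in MDA-MB-231 NEG, 24.3 and 23.8 in MDA-MB-231 POS, 7.75 and 7.69 in MDA-MB-436 NEG and 25.5 and 25.7 in MDA-MB-436 POS. CDH4, the adhesion protein R-cadherin (chr20:59827317-60515673), was at 141 and 125 CPM in MDA-MB-231 NEG, 64.2 and 60.5 in MDA-MB-231 POS, 4.47 and 5.66 in MDA-MB-436 NEG and 21.6 and 22.5 in MDA-MB-436 POS. In each of the 3 genes the POS and NEG libraries of a line did not overlap, and the line differences were -2.85 ± 0.12, -3.23 ± 0.13 and -3.21 ± 0.14 respectively (adjusted p = 1.86e-12, 1.05e-12 and 6.76e-12). For PLXNA2 the POS sublines had about the same level while the NEG sublines lay on either side of it.

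FAT3, a giant atypical cadherin, had a line difference of -4.24 ± 0.30 and was at 7.86 and 7.78 CPM in MDA-MB-231 NEG, 1.76 and 2.06 in MDA-MB-231 POS, 0.638 and 0.769 in MDA-MB-436 NEG and 3.84 and 2.7 in MDA-MB-436 POS (adjusted p = 3.96e-09). LBH, a transcription cofactor of limb and mammary development known as a Wnt target, was at 8.11 and 7.5 CPM in MDA-MB-231 NEG, 1.34 and 1.49 in MDA-MB-231 POS, 1.39 and 1.34 in MDA-MB-436 NEG and 4.05 and 4.92 in MDA-MB-436 POS, with a line difference of -4.17 ± 0.26 (adjusted p = 6.18e-10). The level of LBH in MDA-MB-231 POS overlapped that in MDA-MB-436 NEG. MEGF6, a secreted protein with EGF-like repeats, was at 11.6 and 13.1 CPM in MDA-MB-231 NEG, 1.56 and 2.18 in MDA-MB-231 POS, 11.7 and 15.8 in MDA-MB-436 NEG and 37.5 and 65.3 in MDA-MB-436 POS (line difference -4.61 ± 0.56, adjusted p = 0.0026). LOXL1, a lysyl oxidase that crosslinks elastin and collagen, fell in MDA-MB-231 from 30.3 and 28.7 to 10.2 and 10.3 CPM and had no count in either MDA-MB-436 NEG library against 5.96 and 8.41 CPM in POS, at least 89.0-fold higher when the NEG libraries are set to 3 counts each.

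**Figure D2:**
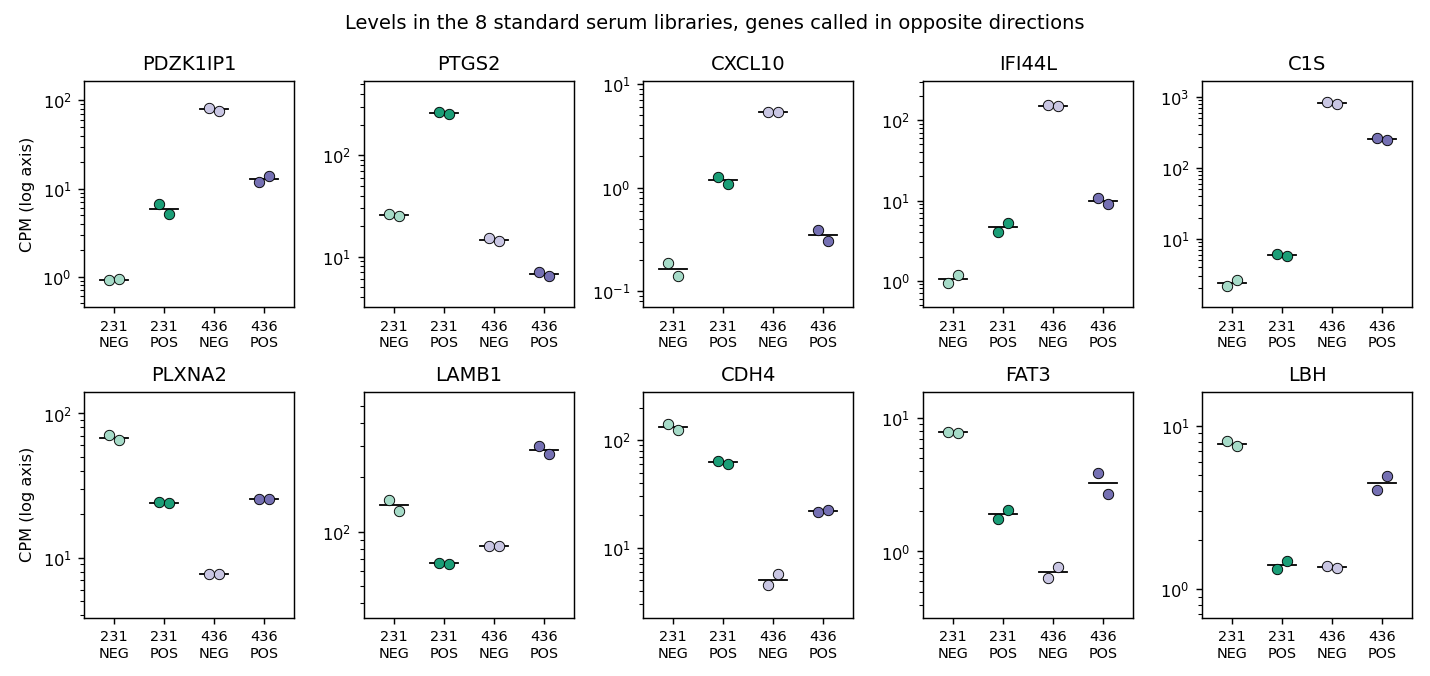
Levels (CPM, log axis) of 10 genes called in opposite directions, with 1 point per library, a bar at the mean of the 2 replicates and the 4 groups on the x axis. In the upper row the POS libraries are above NEG in MDA-MB-231 and below NEG in MDA-MB-436, and in the lower row the order is the reverse, with no overlap between POS and NEG libraries of a line in any panel.

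Gene lists were described by their counts of called members. Against 7.02% of all genes called above and 6.81% called below, the interferon-stimulated effectors had 29 of 45 tested members above and 2 below (median line difference 1.64, against -0.01 over all genes), NF-κB target genes 18 and 1 of 39 (median 1.12), complement genes 7 and 2 of 21 (0.96) and genes of interferon and nucleic acid sensing 10 and 1 of 34 (0.68). At the other end, EMT and mesenchymal genes had 2 above and 12 below of 31 (median -1.01, or -0.53 with every library raised to at least 3 counts), receptor tyrosine kinases 1 and 10 of 32 (-0.46), genes of DNA replication and S phase 0 and 8 of 46 (-0.33) and MAPK feedback and immediate-early genes 0 and 7 of 31 (-0.28). The canonical Wnt target genes had 2 above and 3 below of 22 (-0.19). Counts of 3 or fewer members moved by 1 or 2 when single libraries were left out, apart from 1 list given with its members further on. The interferon-stimulated effectors had a median log2 fold change of 0.21 in MDA-MB-231 and -1.85 in MDA-MB-436, the NF-κB targets 1.65 and -0.0026, and the EMT and mesenchymal genes 0 and 0.72. With libraries raised to 3 counts the other medians of the line difference given here moved by less than 0.05. The medians within each line were not recomputed that way.

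**Figure D3:**
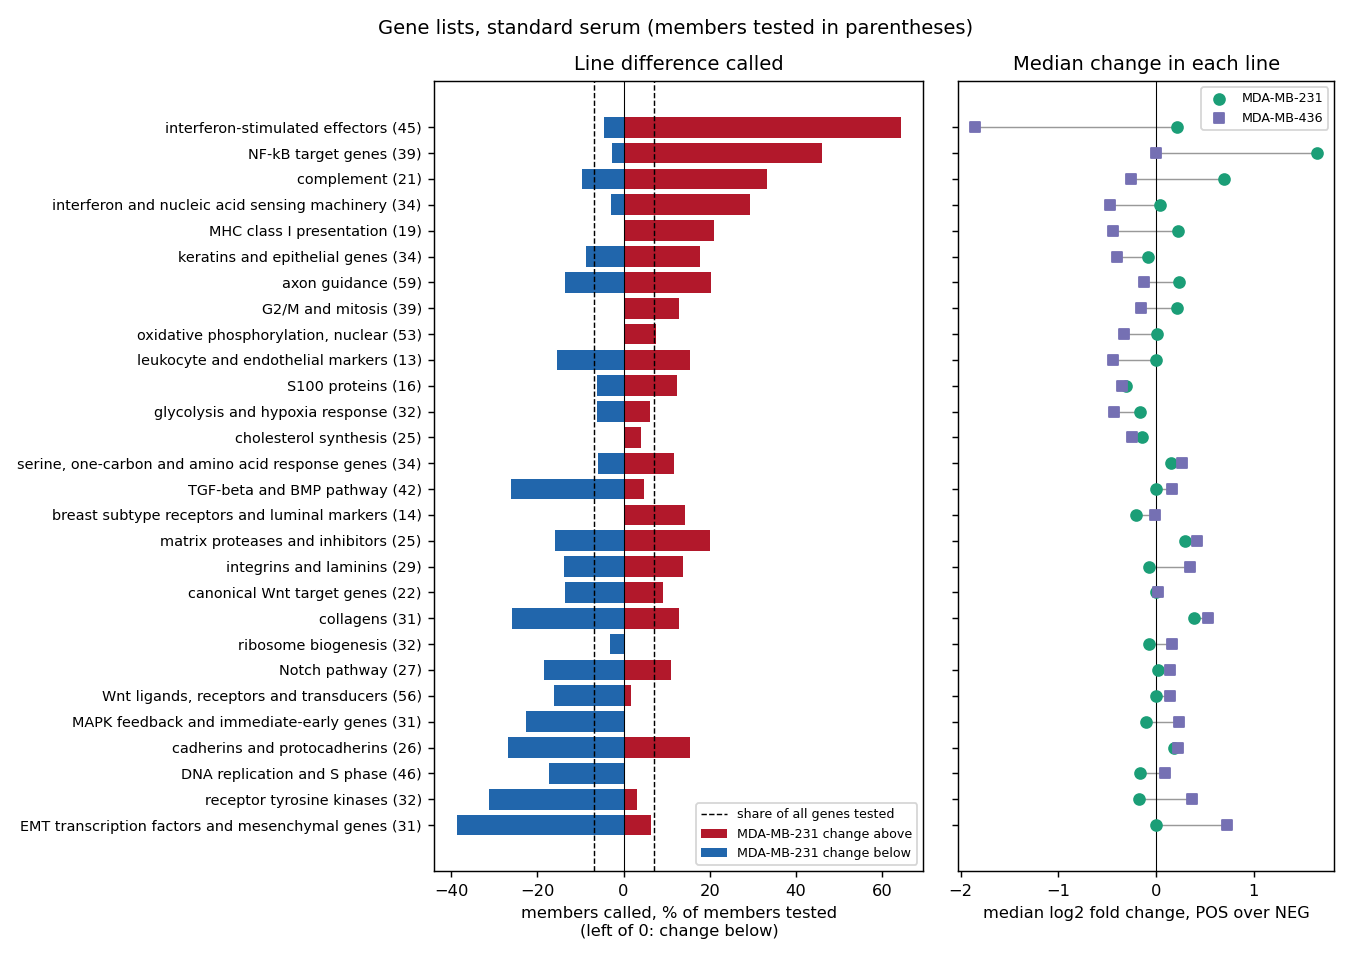
For 28 gene lists, ordered by median line difference, the left panel gives the percentage of tested members whose line difference was called (right of 0, MDA-MB-231 change above, left of 0, below) with dashed lines at the share of all genes tested, and the right panel gives the median log2 fold change in each line. The interferon-stimulated effectors stand at the top through a low median in MDA-MB-436, and the NF-κB targets through a high median in MDA-MB-231.

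The interferon-stimulated effectors, genes for antiviral and chemokine proteins, had 31 of 45 members called. Promoter sequences of 6 of them are shown because the motif that interferon-activated factors bind is found in members that moved in every direction. The motif searched was GAAANNGAAA, on either strand, in the RefSeq window from 250 bases before to 50 bases after the gene start (GRCh38.p14). It was present in 25 of the 36 members matched in the promoter table (69.4%). The share was 2.94% among the 12293 tested genes with a promoter and 3.57% among the 35116 promoters in that table. Capitals mark the motif, on the given or the reverse strand. The first 4 sequences belong to members whose line difference was called above (CXCL10, chr4:76023448-76023747, minus strand, IFI27, chr14:94110486-94110785, plus strand, IFI44L, chr1:78620198-78620497, plus strand, and IFI6, chr1:27672143-27672442, minus strand), the fifth to IFIT5, which was called below (chr10:89414318-89414617, plus strand), and the last to MX1, which was not called (chr21:41420308-41420607, plus strand). IFIT5 and MX1 were chosen after their values were seen.
CXCL10: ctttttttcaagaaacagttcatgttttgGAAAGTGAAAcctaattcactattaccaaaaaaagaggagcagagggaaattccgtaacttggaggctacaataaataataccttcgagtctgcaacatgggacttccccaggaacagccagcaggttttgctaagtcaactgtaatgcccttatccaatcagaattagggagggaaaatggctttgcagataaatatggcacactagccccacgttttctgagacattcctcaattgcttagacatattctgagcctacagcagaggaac
IFI27: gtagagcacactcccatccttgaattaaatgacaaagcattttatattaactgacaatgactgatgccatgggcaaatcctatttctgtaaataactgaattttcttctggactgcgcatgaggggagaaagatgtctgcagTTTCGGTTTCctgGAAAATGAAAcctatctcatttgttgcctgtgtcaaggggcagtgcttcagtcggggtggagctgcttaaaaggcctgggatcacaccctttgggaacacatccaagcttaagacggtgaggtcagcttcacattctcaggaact
IFI44L: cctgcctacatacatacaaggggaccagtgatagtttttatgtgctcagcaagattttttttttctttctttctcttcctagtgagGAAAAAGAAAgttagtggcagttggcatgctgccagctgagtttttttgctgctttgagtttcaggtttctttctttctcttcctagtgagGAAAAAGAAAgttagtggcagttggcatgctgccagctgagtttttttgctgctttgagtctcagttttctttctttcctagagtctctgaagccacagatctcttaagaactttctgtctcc
IFI6: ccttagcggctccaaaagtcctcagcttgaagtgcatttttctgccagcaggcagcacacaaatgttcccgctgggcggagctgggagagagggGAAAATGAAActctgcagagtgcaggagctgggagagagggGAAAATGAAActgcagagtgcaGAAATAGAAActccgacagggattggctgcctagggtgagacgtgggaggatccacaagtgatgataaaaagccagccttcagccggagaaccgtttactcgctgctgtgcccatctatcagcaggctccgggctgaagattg
IFIT5: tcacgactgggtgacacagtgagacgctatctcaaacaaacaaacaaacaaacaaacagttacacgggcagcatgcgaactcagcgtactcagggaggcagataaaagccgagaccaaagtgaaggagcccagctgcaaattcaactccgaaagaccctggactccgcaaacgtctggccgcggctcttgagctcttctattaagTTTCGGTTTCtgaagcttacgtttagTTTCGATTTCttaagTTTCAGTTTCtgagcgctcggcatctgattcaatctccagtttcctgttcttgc
MX1: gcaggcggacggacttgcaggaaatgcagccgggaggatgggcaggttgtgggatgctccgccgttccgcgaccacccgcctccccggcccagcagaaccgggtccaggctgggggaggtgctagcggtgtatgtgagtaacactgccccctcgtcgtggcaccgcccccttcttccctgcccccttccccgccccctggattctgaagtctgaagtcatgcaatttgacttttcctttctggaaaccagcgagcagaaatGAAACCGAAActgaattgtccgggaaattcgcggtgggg
IFI6 held 3 copies of the motif and IFIT5 likewise 3, IFI27 and IFI44L 2 each, and CXCL10 and MX1 1 each. None of the 36 promoters held ATCAAAG, a Tcf/Lef core searched on both strands. It was held by 1.47% of the tested genes with a promoter and 2.62% of all promoters. A match describes these letters only, and the absence of a match says nothing of a factor.

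Of the 45 effectors, 32 were lower in MDA-MB-436 POS and 2 higher, whereas 7 were higher in MDA-MB-231 POS and none lower (6.06% of all genes were called lower in MDA-MB-436 and 4.96% higher in MDA-MB-231). By class, 6 were opposite and 23 were called in MDA-MB-436 alone. IFI44L, an interferon-induced gene of the antiviral response (chr1:79085587-79111830), was at 0.939 and 1.19 CPM in MDA-MB-231 NEG, 4.04 and 5.25 in MDA-MB-231 POS, 155 and 149 in MDA-MB-436 NEG and 10.7 and 9.07 in MDA-MB-436 POS. CXCL10, the chemokine that attracts T cells through CXCR3 (chr4:76942271-76944650), was at 0.188 and 0.14 CPM in MDA-MB-231 NEG, 1.27 and 1.07 in MDA-MB-231 POS, 5.34 and 5.36 in MDA-MB-436 NEG and 0.39 and 0.306 in MDA-MB-436 POS. Both were higher in MDA-MB-231 POS and lower in MDA-MB-436 POS, with line differences of 6.07 ± 0.21 and 6.71 ± 0.44 (adjusted p = 6.57e-13 and 1.06e-09). The highest library of MDA-MB-231 remained below the lowest MDA-MB-436 library for IFI44L, and for CXCL10 the MDA-MB-231 POS level lay between the MDA-MB-436 groups.

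Members called in MDA-MB-436 alone stayed under the size threshold in MDA-MB-231. IFI27, an interferon-induced mitochondrial protein, was at 41.2 and 40.9 CPM in MDA-MB-231 NEG, 81.9 and 78.4 in MDA-MB-231 POS, 31.4 and 28.8 in MDA-MB-436 NEG and 0.802 and 0.662 in MDA-MB-436 POS. This was the largest fall of the list in MDA-MB-436 (log2 fold change -5.34 ± 0.13, against 0.97 ± 0.08 in MDA-MB-231), and the line difference was 6.31 ± 0.16 (adjusted p = 6.8e-15). IFIT1, which binds viral RNA lacking a methylated cap, was at 14.9 and 14.8 CPM in MDA-MB-231 NEG, 14.9 and 12.3 in MDA-MB-231 POS, 75.6 and 73.7 in MDA-MB-436 NEG and 8.8 and 8.66 in MDA-MB-436 POS, and in MDA-MB-231 its groups overlapped. OAS3, an activator of RNase L, was at 10.7 and 10.1 CPM in MDA-MB-231 NEG, 21.8 and 19.4 in MDA-MB-231 POS, 148 and 153 in MDA-MB-436 NEG and 37.2 and 31.9 in MDA-MB-436 POS. IFI6 and IFI44 followed the same order, with line differences of 4.09 ± 0.14 and 3.30 ± 0.12. The exceptions were IFIT5, at 42.7 and 39.01 CPM in MDA-MB-231 NEG, 45.8 and 45.6 in MDA-MB-231 POS, 6.15 and 6.7 in MDA-MB-436 NEG and 22.2 and 20.7 in MDA-MB-436 POS, and LAMP3, a lysosomal membrane protein, at 0.939 and 0.946 CPM in MDA-MB-231 NEG, 1.24 and 0.924 in MDA-MB-231 POS, 4 and 4.24 in MDA-MB-436 NEG and 10.6 and 9.61 in MDA-MB-436 POS. Both rose in MDA-MB-436 alone (line differences -1.58 ± 0.13 and -1.11 ± 0.29, adjusted p = 3.2e-08 and 0.0055), and without MDA-MB-231 POS replicate 2 the LAMP3 value was -0.90 and no longer called. MX1, a GTPase that blocks viral replication, had log2 fold changes of 0.87 and 0.99 in the lines, both under the size threshold, with a 95% interval of the line difference from -0.60 to 0.37.

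Upstream of these genes, 12 of the 34 tested genes of interferon signaling and nucleic acid sensing were lower in MDA-MB-436 POS and none was higher, while MDA-MB-231 had 2 higher and 1 lower. The shares over all genes were 6.06% lower and 6.47% higher in MDA-MB-436, and 4.96% higher and 2.72% lower in MDA-MB-231. STING1, the adaptor of cytosolic DNA sensing, was at 56.7 and 62.3 CPM in MDA-MB-231 NEG, 51.7 and 51.9 in MDA-MB-231 POS, 70.2 and 67.2 in MDA-MB-436 NEG and 9.78 and 10.1 in MDA-MB-436 POS. IFIH1, the sensor of long double-stranded RNA also called MDA5, was at 10.1 and 9.81 CPM in MDA-MB-231 NEG, 19.7 and 17.9 in MDA-MB-231 POS, 89.9 and 92.5 in MDA-MB-436 NEG and 22.3 and 19.5 in MDA-MB-436 POS. STING1 was called in MDA-MB-436 alone, as was IFIH1, whose log2 fold change in MDA-MB-231 was 0.92 ± 0.10, under the size threshold. The line differences were 2.59 ± 0.12 and 3.04 ± 0.13 (adjusted p = 8.6e-12 and 5.85e-12). STAT2 differed by 1.39 ± 0.12 without either line reaching the size threshold, and DHX58 by 2.18 ± 0.17. TLR3, the endosomal sensor of double-stranded RNA, was called in MDA-MB-231 alone. It was at 2.79 and 2.21 CPM in MDA-MB-231 NEG and 9.58 and 9.12 in POS, and in MDA-MB-436 at 7.8 and 8.06 in NEG and 9.25 and 8.18 in POS (line difference 1.76 ± 0.20, adjusted p = 1.47e-06). Genes of MHC class I presentation had 4 of 19 members called above and 18 of 19 above 0, and no member was called within either line. Over all genes tested, 7.02% were called above and 7595 of 15414 were above 0.

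**Figure D4:**
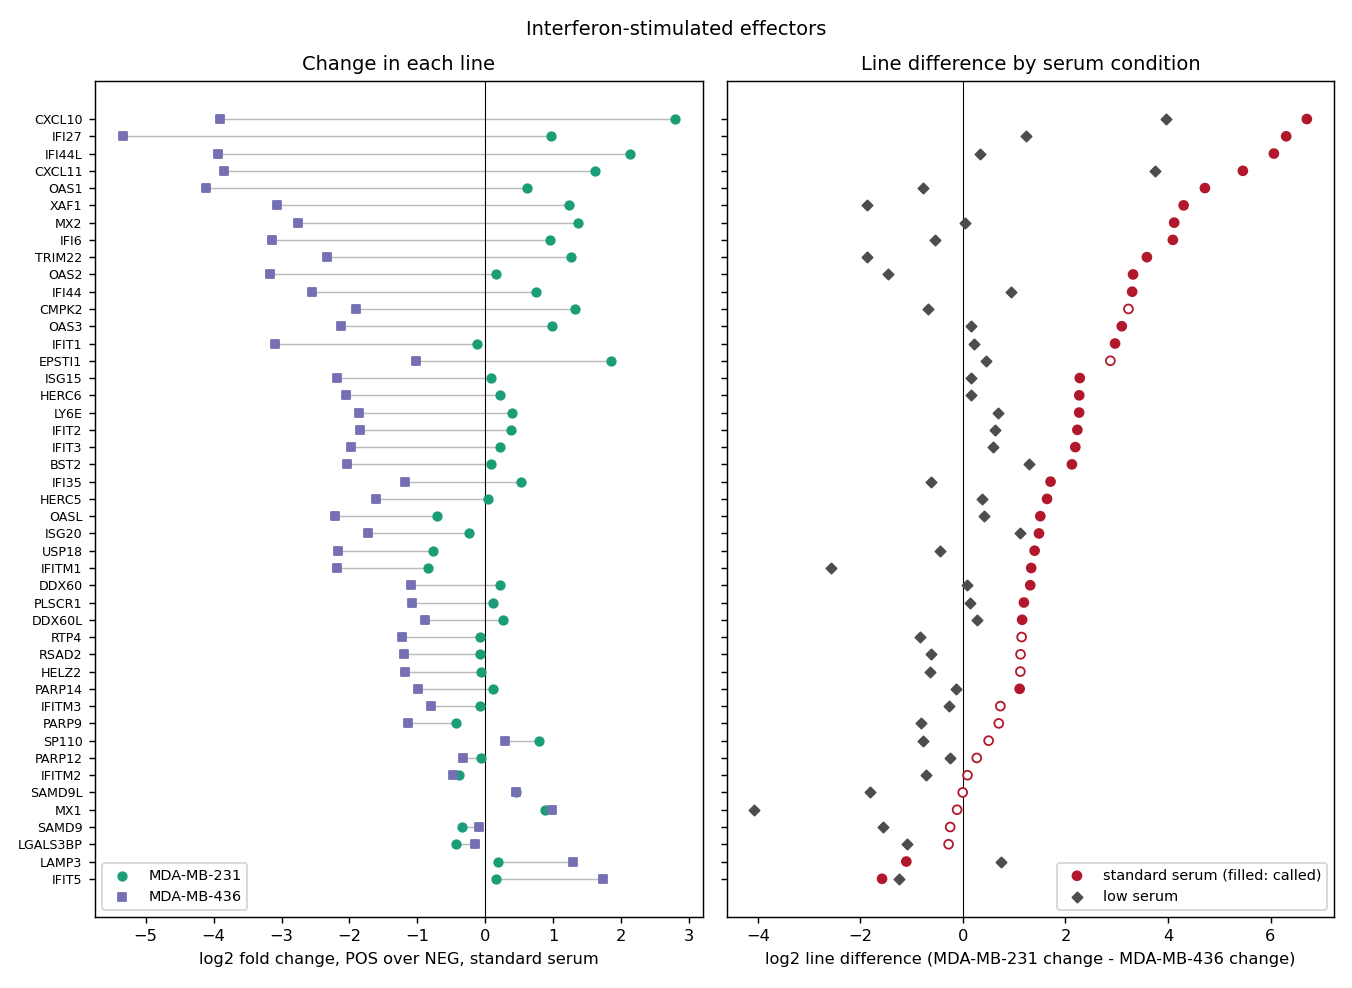
The 45 interferon-stimulated effectors tested, ordered by line difference in standard serum. The left panel gives the log2 fold change of POS over NEG in each line, and the right panel the line difference in standard serum (filled where called) beside the value in low serum (diamonds), where the median over the list was -0.13 against 1.64 in standard serum.

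Of 39 NF-κB target genes, 22 were higher in MDA-MB-231 POS and none lower. In MDA-MB-436, 9 were higher and 4 lower. Over all genes, 4.96% were called higher and 2.72% lower in MDA-MB-231, and 6.47% higher and 6.06% lower in MDA-MB-436. IL1B, the secreted inflammatory cytokine (chr2:113587328-113594393), was at 7.92 and 8.9 CPM in MDA-MB-231 NEG, 154 and 134 in MDA-MB-231 POS, 77.5 and 80.03 in MDA-MB-436 NEG and 198 and 186 in MDA-MB-436 POS. It rose in both lines, by 4.10 ± 0.10 and 1.28 ± 0.08 on the log2 scale, and the rise was larger in MDA-MB-231 (line difference 2.81 ± 0.13, adjusted p = 7.58e-12). IL1A was at 8.36 and 7.57 CPM in MDA-MB-231 NEG, 91.6 and 89.1 in MDA-MB-231 POS, 97.04 and 93.03 in MDA-MB-436 NEG and 191 and 180.0 in MDA-MB-436 POS, with a line difference of 2.53 ± 0.12. TNFAIP3, the A20 inhibitor of NF-κB signaling, was at 20.8 and 19.5 CPM in MDA-MB-231 NEG, 62.3 and 63.1 in MDA-MB-231 POS, 236 and 232 in MDA-MB-436 NEG and 147 and 145 in MDA-MB-436 POS. It was higher in MDA-MB-231 POS, and its change in MDA-MB-436 (-0.68 ± 0.07) was under the size threshold (line difference 2.32 ± 0.10, adjusted p = 7.76e-12). SAA1, an acute-phase protein, followed the same pattern (line difference 2.89 ± 0.15).

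Some chemokines of this list rose in both lines. CXCL8, the neutrophil chemokine interleukin-8, was at 129 and 127 CPM in MDA-MB-231 NEG, 794 and 739.9 in MDA-MB-231 POS, 71.1 and 68.1 in MDA-MB-436 NEG and 382 and 367 in MDA-MB-436 POS. POS lay above NEG without overlap in both lines, and the log2 fold changes of 2.58 ± 0.08 and 2.43 ± 0.08 left a line difference of 0.16 ± 0.10 with a 95% interval from -0.06 to 0.37 (adjusted p = 0.244). CXCL1 rose in both lines as well, and more in MDA-MB-231 (2.98 ± 0.09 against 1.87 ± 0.08, line difference 1.12 ± 0.11, adjusted p = 4.11e-07).

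Complement genes had 8 of 21 members higher in MDA-MB-231 POS and 2 lower, against none higher and 5 lower in MDA-MB-436. The shares over all genes were 4.96% higher and 2.72% lower in MDA-MB-231, and 6.47% higher and 6.06% lower in MDA-MB-436. C3, the central component of the cascade (chr19:6677715-6730573), was at 0.564 and 0.771 CPM in MDA-MB-231 NEG, 23.6 and 23.5 in MDA-MB-231 POS, 1207 and 1223 in MDA-MB-436 NEG and 731 and 702 in MDA-MB-436 POS. Its level in MDA-MB-231 POS stayed under both MDA-MB-436 groups, and the line difference was 5.91 ± 0.16 (adjusted p = 1.71e-14). C1S, described above with the reversed genes, was another member.

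Among Wnt pathway genes, the line difference was called in 5 of 22 canonical targets, against 13.8% of all genes. Of these 22 targets, 3 were higher and 1 lower in MDA-MB-231 POS, and 3 were higher and 4 lower in MDA-MB-436 POS. The shares over all genes were 4.96% higher and 2.72% lower in MDA-MB-231, and 6.47% higher and 6.06% lower in MDA-MB-436. AXIN2, the negative feedback regulator often taken as the most general Wnt target, was at 3.48 and 2.91 CPM in MDA-MB-231 NEG, 4.4 and 3.67 in MDA-MB-231 POS, 1.89 and 1.41 in MDA-MB-436 NEG and 1.44 and 1.58 in MDA-MB-436 POS. It did not pass the test in either line or between them (line difference 0.45 ± 0.29, adjusted p = 0.24, 95% interval -0.16 to 1.07). RNF43, the ubiquitin ligase that removes Frizzled receptors, rose in MDA-MB-231 from 3.51 and 4.52 to 8.7 and 8.56 CPM and had 19 counts in MDA-MB-436 NEG against 4 in POS (ratio 5.58, counting 95% interval 1.86 to 22.6). LGR6, a receptor for R-spondins, was at 0.344 and 0.175 CPM in MDA-MB-231 NEG, 0.619 and 0.656 in MDA-MB-231 POS, 0.464 and 0.769 in MDA-MB-436 NEG and 0.493 and 0.357 in MDA-MB-436 POS, and its line difference of 1.80 ± 0.60 (adjusted p = 0.0228) was no longer called without MDA-MB-231 NEG replicate 2, MDA-MB-231 POS replicate 2, MDA-MB-436 NEG replicate 2 or MDA-MB-436 POS replicate 2 (1.37 to 1.75). RNF43 and LGR6 were the targets called above.

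The targets called below were DKK1, CD44 and TNFRSF19. DKK1, the secreted inhibitor of LRP receptors, was at 603 and 607 CPM in MDA-MB-231 NEG, 489.7 and 466 in MDA-MB-231 POS, 15.8 and 13.97 in MDA-MB-436 NEG and 51.8 and 50.6 in MDA-MB-436 POS. CD44, the hyaluronan receptor, was at 479.7 and 458 CPM in MDA-MB-231 NEG, 429 and 393 in MDA-MB-231 POS, 180.4 and 189 in MDA-MB-436 NEG and 428 and 424 in MDA-MB-436 POS. DKK1 and CD44 rose in MDA-MB-436 alone, with line differences of -2.12 ± 0.11 and -1.40 ± 0.10 (adjusted p = 4.96e-11 and 6.54e-09). TNFRSF19 rose in both lines, by 1.08 ± 0.23 and 2.47 ± 0.27 (line difference -1.39 ± 0.36, adjusted p = 0.00497). LEF1, MYC and CCND1 had line differences of -0.87 ± 0.15, -0.69 ± 0.11 and -0.90 ± 0.10, under the size threshold. CCND1, cyclin D1, was at 865 and 854 CPM in MDA-MB-231 NEG, 524 and 518 in MDA-MB-231 POS, 113 and 119 in MDA-MB-436 NEG and 130.4 and 132 in MDA-MB-436 POS. Its POS libraries lay below NEG in MDA-MB-231 and above NEG in MDA-MB-436, without overlap.

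Wnt ligands, receptors and transducers had 1 member called above and 9 below among 56, against 7.02% and 6.81% of all genes. Without MDA-MB-231 POS replicate 1 or MDA-MB-436 POS replicate 2 the count called above was 2. The member above was FZD4, a Frizzled receptor. It was at 40.4 and 41.4 CPM in MDA-MB-231 NEG, 61.1 and 61.4 in MDA-MB-231 POS, 13.9 and 15.7 in MDA-MB-436 NEG and 8.53 and 7.03 in MDA-MB-436 POS, a line difference of 1.51 ± 0.14 (adjusted p = 1.35e-07). Among the members below, FZD1 was at 38.8 and 35.6 CPM in MDA-MB-231 NEG, 14.5 and 12.6 in MDA-MB-231 POS, 18.5 and 20.8 in MDA-MB-436 NEG and 21.1 and 24.03 in MDA-MB-436 POS, and FZD3 at 5.6 and 4.94 CPM in MDA-MB-231 NEG, 1.37 and 2.18 in MDA-MB-231 POS, 4.84 and 4.49 in MDA-MB-436 NEG and 7.32 and 6.85 in MDA-MB-436 POS. Both fell in MDA-MB-231 alone (line differences -1.66 ± 0.15 and -2.17 ± 0.25, adjusted p = 7.71e-08 and 2.05e-06). WNT11, a ligand known for non-canonical signaling, and TLE2, a co-repressor of Tcf/Lef factors, likewise fell in MDA-MB-231 alone, with line differences of -3.16 ± 0.62 and -1.41 ± 0.23. TCF7L1, a Tcf factor known mostly as a repressor, had 44 counts in MDA-MB-231 NEG against 6 in POS (ratio 7.79, counting 95% interval 3.31 to 22.4) and 11.5 and 11.9 CPM against 12.1 and 11.4 in the MDA-MB-436 groups, which overlapped.

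Matrix lists differed in how evenly the calls fell above and below. Proteases and their inhibitors had 5 called above and 4 below of 25, and integrins and laminins 4 above and 4 below of 29, against 2 above and 12 below for the EMT and mesenchymal genes. Over all genes the shares were 7.02% above and 6.81% below. Among these 31 EMT and mesenchymal genes, 10 were higher and 3 lower in MDA-MB-436, against 3 higher and 4 lower in MDA-MB-231. The shares over all genes were 6.47% higher and 6.06% lower in MDA-MB-436, and 4.96% higher and 2.72% lower in MDA-MB-231. CCN2, the matricellular protein known as connective tissue growth factor (chr6:132269316-132272512), was at 1055 and 1020.0 CPM in MDA-MB-231 NEG, 749 and 705 in MDA-MB-231 POS, 12.9 and 11.8 in MDA-MB-436 NEG and 105 and 107 in MDA-MB-436 POS. It rose in MDA-MB-436 by 3.11 ± 0.08 and changed by -0.51 ± 0.07 in MDA-MB-231, under the size threshold (line difference -3.62 ± 0.11, adjusted p = 6.92e-14). FN1, fibronectin (chr2:216225163-216300796), was at 1833 and 1545 CPM in MDA-MB-231 NEG, 403 and 365 in MDA-MB-231 POS, 113 and 123 in MDA-MB-436 NEG and 196 and 177 in MDA-MB-436 POS. Here the fall in MDA-MB-231 made up most of the line difference of -2.80 ± 0.13 (adjusted p = 6.91e-11). THBS1, thrombospondin 1, and CCN1, a relative of CCN2, rose in MDA-MB-436 by 2.88 ± 0.09 and 2.11 ± 0.08, and their MDA-MB-231 changes of 0.50 ± 0.08 and 0.51 ± 0.07 were under the size threshold.

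Among 31 collagens, 4 were called above and 8 below, against 7.02% and 6.81% of all genes. COL4A5 and COL4A6, neighbouring genes for the α5 and α6 chains of basement membrane collagen IV on chromosome X, rose in MDA-MB-231. COL4A5 was at 2.5 and 2.7 CPM in MDA-MB-231 NEG, 48.3 and 52.03 in MDA-MB-231 POS, 49.9 and 50.1 in MDA-MB-436 NEG and 75.1 and 67.2 in MDA-MB-436 POS, and COL4A6 at 1.22 and 1.44 CPM in MDA-MB-231 NEG, 18.9 and 24 in MDA-MB-231 POS, 4.7 and 4.42 in MDA-MB-436 NEG and 8.39 and 7.31 in MDA-MB-436 POS (line differences 3.76 ± 0.14 and 3.23 ± 0.23). COL16A1, a fibril-associated collagen, fell in MDA-MB-436 from 376 and 391 to 72.1 and 82.9 CPM (line difference 2.75 ± 0.17). In the other direction, COL12A1 rose in MDA-MB-436 from 14.6 and 17.1 to 176 and 148 CPM, and COL13A1, a transmembrane collagen, was at 886 and 858 CPM in MDA-MB-231 NEG, 568 and 564 in MDA-MB-231 POS, 0.087 and 0.471 in MDA-MB-436 NEG and 6.82 and 7.01 in MDA-MB-436 POS. Their line differences were -2.66 ± 0.19 and -5.16 ± 0.30 (adjusted p = 4.44e-06 and 3.22e-07). The LAMA4 laminin chain rose in MDA-MB-436 from 1.04 and 0.967 to 37.3 and 33.6 CPM and was at 29.7 and 24.4 against 53.3 and 49.5 CPM in MDA-MB-231, under the size threshold (line difference -4.22 ± 0.18, adjusted p = 4.43e-12). TIMP3, an inhibitor of matrix proteases, was at 915 and 879 CPM in MDA-MB-231 NEG, 652 and 576 in MDA-MB-231 POS, 5.69 and 5.83 in MDA-MB-436 NEG and 29.2 and 26.6 in MDA-MB-436 POS, a line difference of -2.82 ± 0.13.

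Growth factor receptors were called below more than above. Of 32 receptor tyrosine kinases tested, 7 were higher and 4 lower in MDA-MB-436 POS, and none was higher and 1 lower in MDA-MB-231 POS. The shares over all genes were 6.47% higher and 6.06% lower in MDA-MB-436, and 4.96% higher and 2.72% lower in MDA-MB-231. AXL, the GAS6 receptor, was at 1718 and 1638 CPM in MDA-MB-231 NEG, 1568 and 1433 in MDA-MB-231 POS, 67.5 and 69.9 in MDA-MB-436 NEG and 151 and 148 in MDA-MB-436 POS. PDGFRB was at 4.13 and 4.56 CPM in MDA-MB-231 NEG, 4.2 and 3.01 in MDA-MB-231 POS, 0.377 and 0.273 in MDA-MB-436 NEG and 1.17 and 1.12 in MDA-MB-436 POS. FLT1, the VEGF receptor 1, was at 1.53 and 2 CPM in MDA-MB-231 NEG, 3.03 and 3.37 in MDA-MB-231 POS, 0.203 and 0.273 in MDA-MB-436 NEG and 2.47 and 1.94 in MDA-MB-436 POS. All 3 rose in MDA-MB-436 alone by the thresholds used, with line differences of -1.28 ± 0.11, -2.10 ± 0.38 and -2.32 ± 0.40. The only receptor called above was lost without any of 5 libraries (MDA-MB-231 NEG replicate 1, MDA-MB-231 POS replicate 2, either MDA-MB-436 NEG replicate or MDA-MB-436 POS replicate 2).

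Of the TGF-β and BMP pathway, 2 of 42 were called above and 11 below, against 7.02% and 6.81% of all genes. TGFB2 rose in MDA-MB-436 from 13.6 and 13.97 to 71.3 and 63.8 CPM and stayed at 89.8 and 86.9 against 94.4 and 91.3 CPM in MDA-MB-231 (line difference -2.22 ± 0.12), and TGFBR2, the type II receptor, followed it (line difference -1.34 ± 0.11). CHRDL1, a BMP antagonist, fell in MDA-MB-231 from 28.2 and 27.5 to 0.749 and 0.835 CPM and was at 7.51 and 6.85 against 4.25 and 3.69 CPM in MDA-MB-436 (line difference -4.28 ± 0.21). The count of 2 called above was 1 without MDA-MB-231 NEG replicate 2, 4 without MDA-MB-231 POS replicate 1 or MDA-MB-436 NEG replicate 1, and 5 without MDA-MB-436 POS replicate 2.

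In the Notch pathway 7 of 27 genes were higher in MDA-MB-436 POS and 3 in MDA-MB-231 POS, and none was lower in either line. The shares over all genes were 6.47% higher and 6.06% lower in MDA-MB-436, and 4.96% higher and 2.72% lower in MDA-MB-231. The line difference was called above in 3 and below in 5, against 7.02% and 6.81% of all genes. The count of 5 called below was 3 without MDA-MB-231 POS replicate 2. NOTCH3 was at 10.5 and 10.02 CPM in MDA-MB-231 NEG, 7.46 and 8.62 in MDA-MB-231 POS, 89.9 and 109.8 in MDA-MB-436 NEG and 188 and 224 in MDA-MB-436 POS, and its target HEYL, a repressor of the HEY family, at 0.47 and 0.421 CPM in MDA-MB-231 NEG, 0.293 and 0.298 in MDA-MB-231 POS, 0.145 and 0.0248 in MDA-MB-436 NEG and 2.06 and 2.24 in MDA-MB-436 POS (line differences -1.39 ± 0.18 and -5.27 ± 0.68). Of 31 MAPK feedback and immediate-early genes, 3 were lower in MDA-MB-231 POS and none higher, against 2.72% and 4.96% of all genes. FOS, a subunit of AP-1, was at 56.99 and 53.9 CPM in MDA-MB-231 NEG, 12.8 and 16.1 in MDA-MB-231 POS, 34.8 and 35.1 in MDA-MB-436 NEG and 36.97 and 43.5 in MDA-MB-436 POS, and EGR1 at 59.5 and 62.2 CPM in MDA-MB-231 NEG, 32.6 and 33.6 in MDA-MB-231 POS, 56.4 and 58.4 in MDA-MB-436 NEG and 104 and 103 in MDA-MB-436 POS. FOS fell in MDA-MB-231 alone (line difference -2.14 ± 0.15), and EGR1 moved by -0.88 ± 0.08 and 0.85 ± 0.07, each under the size threshold, with a line difference of -1.73 ± 0.11 (adjusted p = 5.52e-10). Of 14 breast subtype receptors and luminal markers, 2 were called above and none below, a share near the 13.8% of all genes. In this list 6 of 14 members were above 0 (median -0.15), against 7595 of all 15414 genes. FOXA1, a pioneer factor of luminal cells and a member called above, had 67 counts in MDA-MB-231 POS against 2 in NEG (ratio 31.5, counting 95% interval 8.40 to 266) and was at 4.47 and 4.12 against 3.58 and 3.29 CPM in MDA-MB-436. Its fitted line difference was 5.15 ± 0.65, and 8.57 without MDA-MB-231 NEG replicate 1.

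Of the metabolic lists, genes of serine, one-carbon and amino acid response had 4 of 34 called above and 2 below, and nuclear genes of oxidative phosphorylation 4 of 53 above and none below. Over all genes the shares were 7.02% above and 6.81% below. Of 32 glycolysis and hypoxia genes, 2 were called above and 2 below. SLC2A3, the neuronal-type glucose transporter GLUT3, was at 117 and 112 CPM in MDA-MB-231 NEG, 75.8 and 67.4 in MDA-MB-231 POS, 104 and 102 in MDA-MB-436 NEG and 12.99 and 11.2 in MDA-MB-436 POS, and fell in MDA-MB-436 (line difference 2.41 ± 0.12). ALDOC, a fructose-bisphosphate aldolase, fell in both lines and more in MDA-MB-231 (-4.70 ± 0.14 against -1.51 ± 0.10, line difference -3.19 ± 0.17). DDIT4, a stress-induced inhibitor of mTORC1, was at 349.5 and 372 CPM in MDA-MB-231 NEG, 652 and 639.9 in MDA-MB-231 POS, 268 and 284 in MDA-MB-436 NEG and 103 and 125 in MDA-MB-436 POS (line difference 2.11 ± 0.12, adjusted p = 3.31e-10). Of 39 G2/M and mitosis genes, 5 were called above and none below, among them HMMR and ASPM (1.65 ± 0.16 and 1.54 ± 0.17), whereas of 46 genes of DNA replication and S phase none was called above and 8 below. E2F1, the S phase transcription factor, was at 37.1 and 35.5 CPM in MDA-MB-231 NEG, 16.4 and 16.5 in MDA-MB-231 POS, 87.3 and 84.1 in MDA-MB-436 NEG and 102 and 113 in MDA-MB-436 POS, and the helicase subunit MCM7 at 194 and 195 CPM in MDA-MB-231 NEG, 162 and 154 in MDA-MB-231 POS, 182 and 175 in MDA-MB-436 NEG and 449 and 453 in MDA-MB-436 POS (line differences -1.47 ± 0.11 and -1.64 ± 0.10). Cholesterol synthesis and ribosome biogenesis had 1 called member each, of 25 and 32. The shares called in the oxidative phosphorylation, glycolysis, mitosis, cholesterol and ribosome lists were under the 13.8% of all genes. The share of oxidative phosphorylation genes called above was near the 7.02% of all genes.

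Genes called in 1 line with the largest differences, among those with a mean of 1 CPM or more, included several not detected in a subline. EEA1, a tether of early endosomes (chr12:93164413-93323107), was at 29.7 and 28.1 CPM in MDA-MB-231 NEG and 27.2 and 25.9 in POS. It had no count in either MDA-MB-436 NEG library and was at 32.02 and 24.97 CPM in MDA-MB-436 POS, at least 353-fold higher when the NEG libraries are set to 3 counts each. CBFB, the partner subunit of RUNX factors (chr16:67062887-67134961), and MYL9, a myosin regulatory light chain (chr20:35169900-35179850), were likewise without a count in MDA-MB-436 NEG. Their POS levels there were higher by at least 270-fold and at least 85.6-fold, while the MDA-MB-231 groups were at 39.4 and 38.9 against 31.5 and 32.98 CPM for CBFB and 39.1 and 39.9 against 27.5 and 26.8 CPM for MYL9. In the other direction, RINL, a Rab5 exchange factor, was at 0.751 and 0.981 CPM in MDA-MB-231 NEG, 1.82 and 0.954 in MDA-MB-231 POS, 63.6 and 61.1 in MDA-MB-436 NEG and 0.0822 and 0.331 in MDA-MB-436 POS (line difference 8.97 ± 0.59).

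In MDA-MB-231, NCKAP5 had 499 counts in POS against 1 in NEG (ratio 470, counting 95% interval 83.9 to 18590), and CYP24A1, the vitamin D 24-hydroxylase, was at 0.344 and 0.0701 CPM in MDA-MB-231 NEG, 18.6 and 16.9 in MDA-MB-231 POS, 0.638 and 0.422 in MDA-MB-436 NEG and 0.37 and 0.357 in MDA-MB-436 POS (line difference 6.87 ± 0.54, adjusted p = 2.56e-08). ZFP3, a zinc finger gene, had 68 counts in MDA-MB-231 NEG and none in POS, at least 12.1-fold lower, and was at 21.1 and 21.6 against 14.9 and 12.9 CPM in MDA-MB-436. PPP2R2C, a regulatory subunit of protein phosphatase 2A, fell in MDA-MB-231 from 35.2 and 35.8 to 0.749 and 1.04 CPM (line difference -4.66 ± 0.16). These genes changed in 1 line by the thresholds used.

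Among the 173 genes that moved in the same direction in both lines, the line difference was called in 50, of which 21 changed more in MDA-MB-231 and 29 more in MDA-MB-436. TGM4, a transglutaminase known from the prostate, had 7010 counts in MDA-MB-231 POS against 3 in NEG (ratio 2199, counting 95% interval 752 to 10670) and rose in MDA-MB-436 from 0.029 and 0.0992 to 0.76 and 0.459 CPM. LINGO2, a leucine-rich repeat membrane protein, had no count in MDA-MB-231 NEG and was at least 25.1-fold higher in POS, and rose in MDA-MB-436 by 1.19 ± 0.18. SPIN4, a spindlin family histone reader, changed more in MDA-MB-436, with 1814 counts in POS against 1 in NEG (ratio 1543, counting 95% interval 277 to 60980), and rose in MDA-MB-231 from 9.46 and 9.04 to 18.2 and 19.9 CPM.

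Neighbouring genes were also compared. Over 12629 genes averaging 1 CPM or more (14.5% called), medians were taken over 241 windows of 50 neighbouring genes. The interquartile range of the window medians was -0.21 to 0.13, and 24 windows lay beyond 0.5 in either direction. On the short arm of chromosome 5 the first window (chr5:92283-31639238, from the first to the last gene start) had a median of 1.69, with 41 genes called above and 1 below. SDHA, the flavoprotein of succinate dehydrogenase, and NDUFS6, a complex I subunit, lie in it, with line differences of 1.55 ± 0.11 and 2.32 ± 0.14. The median POS over NEG change of that window was -1.37 in MDA-MB-436 and 0.35 in MDA-MB-231. On chromosome 7, windows at chr7:75162619-92158087 and chr7:92190072-99704499 had the lowest medians, -0.89 and -0.93, with 23 and 21 genes called below. Their genes were higher in MDA-MB-436 POS (medians 1.02 and 0.88) and at 0.10 and -0.04 in MDA-MB-231. MCM7 lies in the second of these windows. On chromosome X, 5 windows had medians from 0.57 to 0.94, carried by MDA-MB-231 (0.46 to 0.79), and COL4A5 and COL4A6 lie in them.

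**Figure D5:**
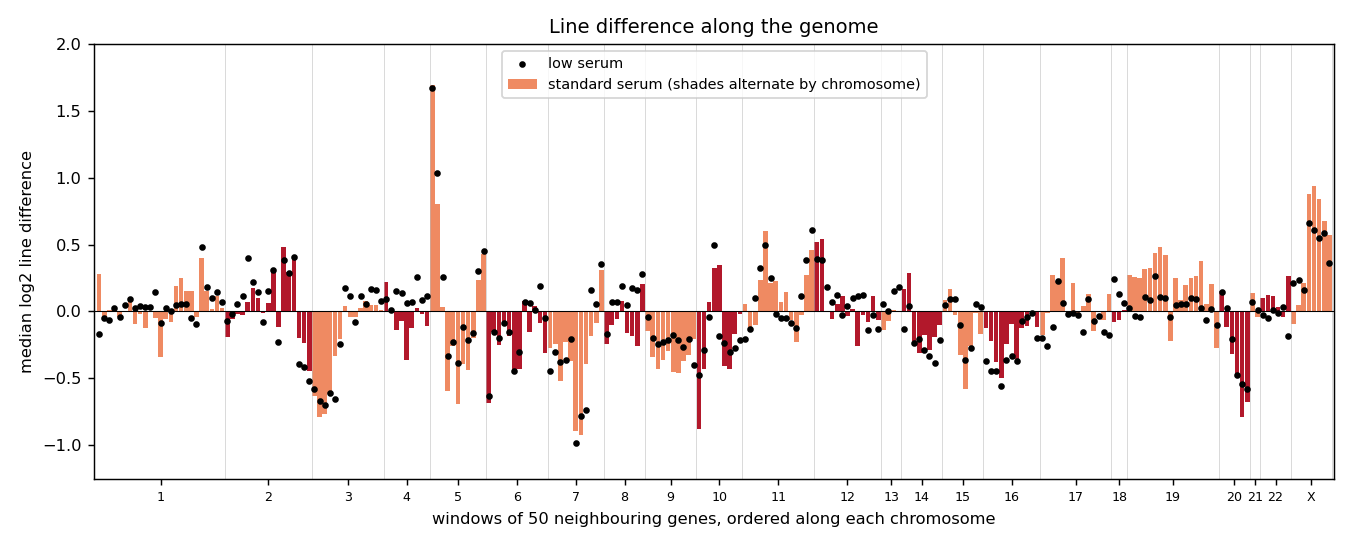
Median line difference over windows of 50 neighbouring genes, in order along chromosomes 1 to 22 and X, as bars for standard serum and points for low serum. The tallest bars above 0 are at the start of chromosome 5 (1.69) and on chromosome X (up to 0.94), the lowest are on chromosome 7 (-0.93), and the low serum points have the same sign in these windows.

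The same 4 sublines were sequenced after 3 days in 0.5% serum, which allows the line difference to be set against a second condition. Per the study's methods those libraries were made by rRNA depletion rather than poly(A) selection, whereas the labels name 1 kit for all libraries. Serum, time in culture and, where the methods hold, library type cannot be told apart. In low serum the line difference was called in 1884 of 16069 genes (11.7%, with 4.72% above and 7.01% below). Of the 2131 genes called in standard serum and tested in low serum, 1953 had the same sign and 1057 were called in the same direction. Another 15 were called in the opposite direction. In 1 model over all 16 libraries, the line difference itself differed between the conditions in 683 of 15286 genes (4.47%). It was higher in standard serum in 435 of them and lower in 248. Among the 147 genes that reversed between the lines, 118 had a called line difference of the same sign in low serum, 42 were again called in opposite directions within the lines, and none was called in the reverse order.

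Of the genes named above, PLXNA2, IL4I1, ACVRL1, CXCL10, PDZK1IP1, EPHB6, MEGF6 and LBH were again called in opposite directions in low serum. Line differences there were -2.62 for PLXNA2, 5.27 for IL4I1 and 3.95 for CXCL10. Other reversed genes named above were not called in both lines there. In low serum PTGS2 and C1S were called in MDA-MB-231 alone, and PTGS2 changed by -0.08 in MDA-MB-436. LAMB1, CDH4, FAT3, LOXL1 and ALDH1L1 were called there in MDA-MB-436 alone, and the line difference of RNF43 was not called. The low serum changes of LAMB1, CDH4, FAT3, LOXL1 and ALDH1L1 in MDA-MB-231 kept their direction but were under the size threshold. They were -0.997 for FAT3, -0.98 for LOXL1, -0.23 for LAMB1, -0.27 for CDH4 and 0.72 for ALDH1L1 (log2). For the interferon-stimulated effectors the line difference changed with the condition. The line difference of 31 of 45 effectors was higher in standard than in low serum (2.85% of all genes were called in that direction), and 1 was lower. In low serum IFI44L was at 200.3 and 182 CPM in MDA-MB-436 NEG and 278 and 303 in POS, with POS above NEG instead of below, and its line difference was 0.34 (adjusted p = 0.0697). The difference between conditions was 5.71 ± 0.29 (adjusted p = 1.23e-10). MX1 had no called difference in standard serum and a large one in low serum. It was at 6.35 and 6.46 CPM in MDA-MB-436 NEG and 141 and 133 in POS, and in MDA-MB-231 at 5.15 and 5.22 in NEG and 6.93 and 6.23 in POS, a line difference of -4.07. Of 38 NF-κB targets tested in low serum, 25 were called above and 1 below (median 1.67), against 4.72% and 7.01% of all genes. Their line difference was itself higher in standard serum in 4 and lower in 3, against 435 and 248 of all 15286 genes. CXCL8 was among the latter and was not called in standard serum. In low serum it had a line difference of 2.25 (adjusted p = 7.37e-19) and a difference between conditions of -2.12 ± 0.14 (adjusted p = 3.12e-10). Of 46 S phase genes, 1 was called above and 1 below in low serum, against 0 and 8 in standard serum.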

How the data were processed

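RNA-seq was available for 4 sublines in standard serum and the same 4 in low serum, 2 biological replicates each. Per the study's methods and processing notes, the authors aligned reads to hg19 with STAR (2.6.1a in the notes) and counted genes of a Gencode annotation, and they deposited raw read counts per gene and, beside them, TPM values (per transcript length and library size). The methods state poly(A) selection for standard serum and rRNA depletion for low serum, whereas the labels name the TruSeq kit for all libraries. Counts of the 8 standard serum libraries were tested with edgeR 4.0.16 (quasi-likelihood, TMM scaling, 4 groups in 1 model) in R 4.3.3 for protein-coding genes with at least 10 counts over the 8 libraries, and p-values were adjusted by Benjamini-Hochberg over all genes tested. CPM values are TMM-scaled, and SE is the log2 value divided by the square root of F. Of 57820 gene IDs, 55538 matched the GRCh37 annotation (Gencode v44 lifted over), which gave symbols, types and positions. The counts were fitted the same way in low serum, and the 16 libraries in 1 model for the difference between conditions. On simulated counts with 200 genes changed 4-fold in 1 group, 99.5% were recovered and 7 of 15120 others called. Those 200 genes were drawn from genes with higher mean counts, and their change was beyond the size threshold. Recovery of low-count genes or of smaller changes was not tested. Genes named were taken by rule (largest opposite changes, largest changes in 1 line, list members by adjusted p, Wnt targets), and a subset is printed, with some genes not reported here. IFIT5, LAMP3 and MX1 were chosen after their values were seen. The genes and lists were chosen with earlier results of these data known. A count of 3 per library stood for a group at 0, and counting intervals (95%, exact, conditional on the total) cover counting error only. Alternatives were DESeq2 1.42.0, limma 3.58.1 (voom, and trend on log2(TPM + 1)), other filters, scalings and thresholds, a replicate block, a GC offset and leaving out each library. Promoter windows came from RefSeq by gene symbol.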

Additional observations from a re-analysis of the deposited data

Results flagged for a closer look

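The response to reporter sorting differed between the lines, by the test of the difference itself, in 2132 genes, and 95 and 52 genes changed in opposite directions in the lines. Each of the single genes named above as called is one of these. The line difference in turn differed between the serum conditions in 683 genes, and in 31 of the interferon-stimulated effectors it was higher in standard serum. The values that follow are the line difference in standard serum minus that in low serum (log2), for genes named above that passed the test of this difference (adjusted p under 0.05 and at least 1 in size). Serum, time in culture and, per the study's methods, library type cannot be told apart in these values.

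Among interferon genes and their upstream factors the values were IFI44L 5.71, IFI27 5.05, IFI6 4.61, MX1 3.93, OAS3 2.93, CXCL10 2.73, IFIT1 2.73, IFI44 2.33, IFIH1 2.03, TLR3 1.86, DHX58 1.72, STAT2 1.57 and STING1 1.04, and LAMP3 -1.87 and CXCL8 -2.12 for a member each of the interferon and NF-κB lists. Among other inflammatory, complement and receptor genes they were C3 1.90, SAA1 1.31, PTGS2 1.50, C1S 1.24, PDZK1IP1 1.65, EPHB6 2.03, CYP24A1 2.75 and IL1B -1.05. Wnt genes gave FZD4 1.23, LEF1 -1.03, CD44 -1.01 and FZD3 -1.36. Matrix, adhesion and TGF-β genes gave COL4A5 1.26, LAMB1 -1.60, CDH4 -1.40, FN1 -1.42, CCN1 -1.59, COL13A1 -1.96, TIMP3 -1.01, TGFB2 -1.24, CHRDL1 -1.63 and LBH -1.91. Receptors, immediate-early, cell cycle and metabolic genes gave NOTCH3 1.63, FLT1 -2.47, EGR1 -1.54, FOS -2.42, E2F1 -1.37 and ALDOC -1.05. For EEA1 the value was -4.07, but its level in MDA-MB-436 NEG was 0 in standard serum and 0.16 and 0.111 CPM in low serum, so that the fitted size depends on the prior count.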

How the results depend on the processing

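Line-difference counts within 1.5 times of those reported (1082 above, 1050 below, 95 and 52 opposite, 31 interferon-stimulated effectors) were given by DESeq2 size factors, the DESeq2 test, either other count filter, all biotypes, limma-voom, a prior count of 2 and a GC offset. With adjusted p alone, the counts were 2899 above, 3456 below, and 703 and 708 opposite. Testing against a log2 change of 1 (glmTreat) gave 513 above, 486 below, and 25 and 12 opposite. With limma on log2(TPM + 1), 18 and 11 were opposite, and 33 of the 2132 calls had the other sign (the cause was not tested). Leaving out 1 library at a time gave 997 to 1196 above, 947 to 1066 below, 85 to 96 and 45 to 53 opposite, and 31 to 32 effectors. Deviations of same-numbered replicates correlated at -0.0228 to 0.185 over 6 group pairs, 4 of them over 0.1, and the labels give the numbers no shared source, so they were not treated as pairs. A fit with the replicate number as a block called 1119 above and 1039 below, with 95 and 50 opposite, and a GC offset with that block 1108 and 1057.

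Apart from genes named only to check the labels, 94 genes were named. Of these, 79 kept their direction and call under all 21 alternatives and none reversed. LGR6 lost its call in the DESeq2 test (adjusted p = 0.153) and in 4 of the 8 fits without 1 library, and LAMP3 in 1. With limma on log2(TPM + 1), RNF43, TNFRSF19, LGR6, TCF7L1, PDGFRB, FLT1, ZFP3 and LINGO2 lost their call. The line differences in that fit were -0.30 for ZFP3, 0.79 for LINGO2 and -0.62 for TCF7L1. With glmTreat, LAMP3, CXCL1, TNFRSF19, LGR6, TLE2 and NOTCH3 lost theirs. LEF1, CCND1 and MYC were called with adjusted p alone. A group left with 1 library is assumed to vary like the others. With 2 cultures of 1 subline pair per line, the tests cover spread between cultures only, and low-count genes carry the widest intervals.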

Other observations

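Among genes of other biotypes, which the tests above leave out, a fit over all biotypes called the line difference in 562 of 7970 genes, 265 above and 297 below.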
